A study of Mus musculus with 8 samples.

Results

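The genes described here are 9 members of the Slit-Robo and netrin guidance families, chosen by symbol from the 32285 genes counted in single nuclei of adult mouse heart: the ligands Slit2, Slit3, Ntn1 and Ntn4 and the receptors Robo1, Robo2, Robo4, Unc5b and Unc5c. All 9 had counts. Slits are large secreted proteins that bind Robo receptors, and netrins are laminin-related secreted proteins that bind DCC, neogenin and UNC5 receptors. Both systems were first described in growing axons, where they attract or repel the growth cone, and both also steer vessel sprouting, cell adhesion and heart tube and valve formation. UNC5 receptors are mostly repulsive, and ROBO4, a shorter Robo, is best known from vascular endothelium.

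The study set female and male wild-type hearts beside hearts that constitutively express cyclin A2 (Tg; genotype Tg-ccna2), a regulator of entry into the cell cycle, with non-transgenic hearts (nTg) as controls. The promoter of the transgene and the ages of the animals are not given in the sources used here, and nothing says whether a library is 1 heart. The values are UMI counts (unique molecular identifiers, 1 per captured transcript) from 10x Genomics droplets. Of 8 labelled libraries, 5 had a matrix that matched their own barcode list, and these are used here. They are 1 library labelled nTg, female 1, and 4 labelled Tg, of which females 1 and 2 come first and males 1 and 2 last wherever values of single libraries are listed.

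These libraries held between 25045167 and 38593706 UMIs, with 5772, 8843, 6632, 7219 and 6182 nuclei after filtering and medians from 2140.5 to 3055 UMIs per nucleus. Pairs of libraries shared 14 to 28 barcodes. Ccna2, the gene of the transgene, went against 2 labels: in cardiomyocytes it was at 444 CPM (counts per 1000000 UMIs) in the library labelled nTg female 1 and at 0.522 CPM in that labelled Tg female 1, against 143 to 826 CPM in the other 3. Libraries are therefore named by label alone. Xist, the transcript of the inactive X chromosome, matched the sex labels in all named nuclei, with 1265 to 1466 CPM in female and 8.34 and 0.340 CPM in male libraries. In cardiomyocytes Xist was at 683 to 935 CPM in female libraries, 19.7 CPM in Tg male 1 and 0.465 CPM in Tg male 2. The source of the Xist counts in Tg male 1 was not tested. Tg female 2 stood apart in several ways: it was the shallowest library, it gave 83.3% of the 365 nuclei of an unnamed cluster, and its fibroblasts were distributed over their clusters in other proportions.

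Nuclei were clustered without the members, the other pathway genes, Ccna2 and sex-linked genes, and clusters took cell type names from marker lists. Fibroblast markers, for example, summed to 9328 to 14200 CPM in fibroblasts and to 414 to 1014 CPM in smooth muscle. In all, 8 types had at least 50 nuclei in every library, and they held 12647 fibroblast, 7037 endothelial, 6568 cardiomyocyte, 2451 macrophage, 2188 pericyte, 1330 endocardial, 785 lymphatic endothelial and 517 smooth muscle nuclei. Levels by type are descriptions without a test, because the types were made from these nuclei. Nuclear RNA is rich in unspliced transcripts, so that long genes collect more UMIs. The member genes span 13.2 kb (Robo4) to 738 kb (Robo1), and levels are compared between cell types for 1 gene, not between genes.

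Sequence features of the Slit genes bear on how their nuclear counts are read, and they are shown first. Slit2 (chromosome 5, 47983138 to 48307733, plus strand, GRCm38) and Slit3 (chromosome 11, 35121224 to 35708507, plus strand) each carry a copy of the same microRNA on their own strand and outside their annotated exons: Mir218-1 in Slit2, with its mature 5p arm at 48223966 to 48223986, and Mir218-2 in Slit3, with that arm at 35616840 to 35616860. Both give 1 mature sequence (RefSeq, GRCm38.p6; capitals mark the seed, bases 2 to 8). The microRNA itself was not measured, and the values below are those of the host genes.
mmu-miR-218-5p: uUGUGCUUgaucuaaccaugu

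Promoters are shown for a ligand that led in fibroblasts, Slit2, and for a receptor whose 3 highest types were endothelial ones, Robo4. RefSeq promoters were found for 8 of the 9 members, and Ntn1 had none in the table. In the 250 bases before the RefSeq start, both strands were searched for GGAA, the core of sites of ETS factors, GGGCGG, the GC box, and TATAAA, the TATA box. Overlaps between motifs were allowed. Matches are in capitals, and bases that GENCODE places inside the transcript are left out. The stretches are chr5:47982905-47983137 for Slit2 and chr9:37401722-37401896 for Robo4, both on the plus strand of GRCm38.p6.
Slit2 promoter: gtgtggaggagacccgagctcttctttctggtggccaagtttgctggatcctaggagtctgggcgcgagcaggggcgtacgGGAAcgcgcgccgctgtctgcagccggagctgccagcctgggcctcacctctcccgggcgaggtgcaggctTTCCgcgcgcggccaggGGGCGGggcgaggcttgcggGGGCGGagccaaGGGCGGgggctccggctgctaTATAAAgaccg
Robo4 promoter: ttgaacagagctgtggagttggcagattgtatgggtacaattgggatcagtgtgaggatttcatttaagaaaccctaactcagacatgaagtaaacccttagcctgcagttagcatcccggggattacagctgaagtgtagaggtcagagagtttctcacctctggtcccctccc

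The Slit2 stretch held 3 GC boxes, 1 TATA box and 2 GGAA cores. Robo4 had no GC box or TATA box in its 250 bases, and its 3 GGAA cores lay in the part nearest the RefSeq start, which is not printed. Of 27025 promoters of the same length, 93.4% held GGAA, 32.9% held GGGCGG and 12.97% held TATAAA. The GC content of the 250 bases was 69.6% for Slit2 and 49.6% for Robo4. A match is a match of letters and no more.

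Among the ligands, Slit2 was a fibroblast transcript. Its levels there were 371, 495, 253, 302 and 305 CPM, a mean of 345 CPM ± 93.7 (SD, n = 5). Smooth muscle came next at 31.9 CPM ± 16.6 (SD, n = 5), and the lowest fibroblast library lay above the highest of every other type. The ratio of fibroblasts to smooth muscle ran from 6.36 to 19.3 over the 5 libraries. Of the genes considered, 13% had their highest level in fibroblasts, against 3 of the 9 members (Slit2, Robo1 and Robo2). Fibroblasts held 88.3% of all Slit2 UMIs of the named nuclei on average, and 29.4% of the UMIs of all genes. Of 13832 genes considered, 94.4% had a lower ratio of their first to their second type. From smooth muscle down through pericytes, cardiomyocytes and endocardium to the other types, neighbours in the order had overlapping ranges.

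Slit3, the other Slit counted in quantity, was high in both mural smooth muscle and fibroblasts. In smooth muscle it stood at 1549, 1267, 650.1, 1181 and 1136 CPM, a mean of 1156 CPM ± 325 (SD, n = 5). Fibroblasts had 657.5, 685, 314, 1066 and 1041 CPM, a mean of 753 CPM ± 311 (SD, n = 5). Smooth muscle was the higher of both types in 5 of 5 libraries, although the ranges overlapped between libraries, and Tg female 2 was the lowest library in each. The next type, endocardium, had 92.6 CPM ± 29.7 (SD, n = 5).

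Slit3 was also counted in mesothelial nuclei, the surface layer of the heart, of which there were 110 in all and as few as 2 in a library. Pooled over libraries they had 1085 Slit3 UMIs, or 2515 CPM, and each library gave between 2052 and 4537 CPM. They also had 47 Slit2 UMIs, or 109 CPM pooled, against 34.0 CPM pooled in smooth muscle. Single libraries gave between 0 and 187 CPM of Slit2 in mesothelial nuclei. Macrophages had 35.4 CPM ± 10.4 (SD, n = 5), and endothelial nuclei 36.9 CPM ± 4.25 (SD, n = 5). When every nucleus was thinned to 1000 UMIs, a Slit3 UMI was seen in 3.37% of macrophages, 3.41% of endothelial nuclei and 37.7% of fibroblasts (7.25%, 6.49% and 54.2% without thinning). Median depths were 1836 to 2701 UMIs for macrophages and 2075 to 3025 UMIs for fibroblasts. The endothelial Slit3 signal was thus near the macrophage level. Whether Slit3 in either type came from expression or from RNA of other cells was not tested. Free RNA itself was not measured.

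Ntn1, netrin-1 (chromosome 11, 68209364 to 68400823, minus strand), was highest in lymphatic endothelium, at 745, 985, 672, 928 and 831 CPM, a mean of 832 CPM ± 128 (SD, n = 5). Endocardium had 263 CPM ± 64.2 (SD, n = 5), below lymphatic endothelium by 2.56- to 3.55-fold in every library, with no overlap. Fibroblasts (141 CPM ± 18.4, SD, n = 5) and cardiomyocytes (119 CPM ± 22.4, SD, n = 5) overlapped. Cardiomyocytes gave the largest share of Ntn1 UMIs, 39.5% on average, and fibroblasts 33.1%. Their shares of the UMIs of all genes were 41.7% and 29.4%, so neither Ntn1 share was far from that of all genes. Pericytes and macrophages had under 10 CPM.

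Ntn4, netrin-4, a basement membrane protein (chromosome 10, 93640681 to 93747207, plus strand), was highest in smooth muscle, at 430.2, 315, 349, 455 and 363 CPM, a mean of 382 CPM ± 58.1 (SD, n = 5). Endocardium, fibroblasts, pericytes and lymphatic endothelium followed with 162, 159, 134 and 103 CPM, and neighbours among these 4 types overlapped. Endothelial nuclei had 21.2 CPM ± 5.66 (SD, n = 5), separated from lymphatic endothelium by a gap in every library. Smooth muscle and pericytes, both mural cells, thus differed from each other in Ntn4 and in Slit3. Ntn4 was also counted in nuclei named Schwann from their markers, 193 in all and as few as 24 in a library. They had 95 Ntn4 UMIs, or 165 CPM pooled over libraries, and each library gave between 83.0 and 281 CPM. The pooled Schwann level was near the means of endocardium and fibroblasts.

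Among the Robo receptors, Robo1 (chromosome 16, 72308306 to 73046095, plus strand) was a fibroblast and pericyte transcript. Fibroblasts had 316, 398, 269, 302 and 276 CPM, a mean of 312 CPM ± 51.9 (SD, n = 5). Pericytes had 134, 198, 130 and 182 CPM in the first 4 libraries and 149.6 CPM in the last, a mean of 159 CPM ± 29.96 (SD, n = 5). These ranges did not overlap each other or those of the other types, the next of which, lymphatic endothelium, had 25.8 CPM ± 10.6 (SD, n = 5). The other mural type, smooth muscle, had 22.7 CPM ± 6.59 (SD, n = 5).

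Robo2, a close relative of Robo1 on the same chromosome (73891839 to 74411825, minus strand), was shared by fibroblasts and endothelial cells. Fibroblasts had 103, 87.8, 71.8, 60.1 and 53.0 CPM, and endothelial nuclei 51.4, 108, 29.5, 73.2 and 36.9 CPM. These 2 types were not separated: fibroblasts were the higher in 3 of 5 libraries. Pericytes, which had Robo1, had 7.40 CPM ± 4.28 of Robo2 (SD, n = 5).

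Robo4 (chromosome 9, 37401897 to 37415115, plus strand) marked endothelium, at 165, 172, 135, 174 and 177 CPM, a mean of 164 CPM ± 17.2 (SD, n = 5). Lymphatic endothelium had 112 CPM ± 9.72 (SD, n = 5) and endocardium 32.3 CPM ± 7.89 (SD, n = 5), and these 3 ranges did not overlap. The rest of the 8 types were at 6.60 CPM or below on average. Over the 8 types the gene with the pattern most like that of Robo4 was Ushbp1 (Pearson r = 0.982 of log2(mean CPM + 1), 8 types that share libraries). For Slit2 it was Smo (r = 0.949), for Ntn1 it was Wipf3 (r = 0.962), and for Slit3, at 0.981, the long non-coding Gm12122.

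The UNC5 receptors had different cells. Unc5b (chromosome 10, 60762593 to 60831581, minus strand) was highest in lymphatic endothelium at 131, 87.7, 99.8, 91.7 and 112 CPM, followed by endothelium at 51.1, 102, 68.3, 52.5 and 59.2 CPM. The ranges overlapped, and lymphatic endothelium was the higher in 4 of 5 libraries. Pericytes and fibroblasts came next, at 49.4 and 39.8 CPM, and cardiomyocytes and macrophages had under 4 CPM.

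Unc5c (chromosome 3, 141465216 to 141834924, plus strand) had smooth muscle, fibroblasts and endocardium as its cells, and pericytes had 0.755 CPM ± 1.05 (SD, n = 5). Smooth muscle gave 108, 341, 48.5, 65.4 and 74.9 CPM, with Tg female 1 far above the rest. The mean over all 5 libraries was 128 CPM ± 121 (SD) and without Tg female 1 it was 74.1 CPM, below the fibroblast mean of 97.7 CPM ± 14.7 (SD, n = 5). Which type led for Unc5c therefore rested on 1 library. Fibroblasts lay above endocardium (37.6 CPM ± 11.9, SD, n = 5) without overlap.

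**Figure D1:**
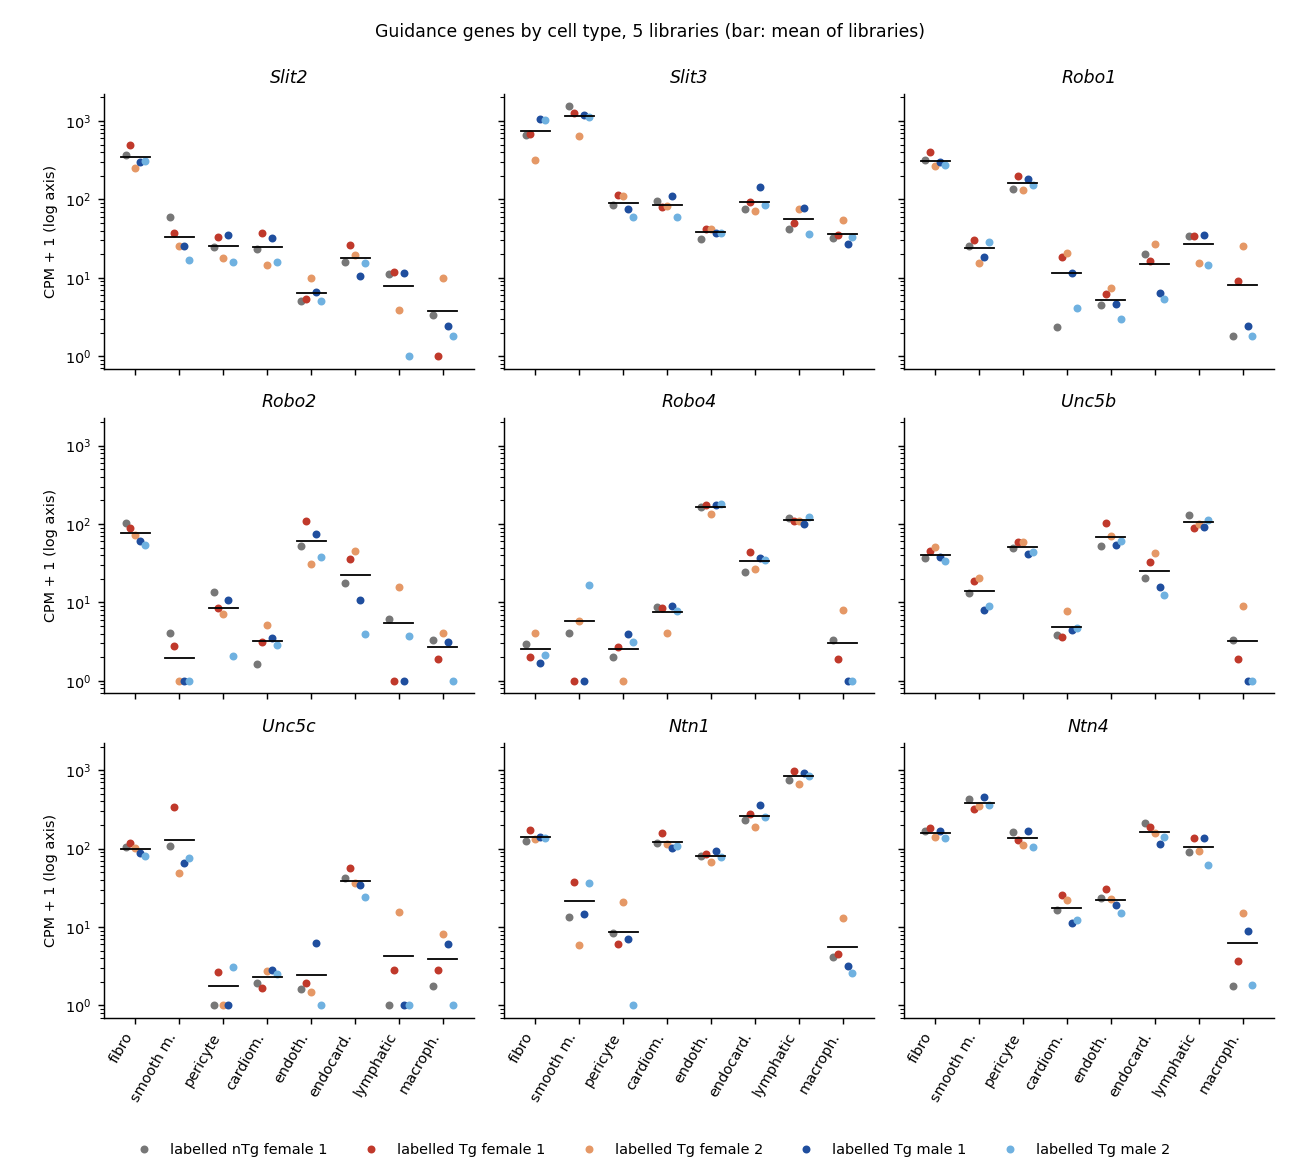
Levels of the 9 guidance genes (CPM + 1, log axis) in 8 cell types; each point is 1 library and each bar the mean of 5 libraries. Slit2 and Robo1 are highest in fibroblasts, Slit3 and Ntn4 in smooth muscle, Ntn1 and Unc5b in lymphatic endothelium and Robo4 in endothelium.

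Other genes of the pathway gave the setting of these patterns. Of 9 other Slit, Robo, netrin and netrin receptor genes, 1 reached 100 CPM in a cell type: Neo1, the netrin receptor neogenin, at 326 CPM ± 81.4 in smooth muscle and 272 CPM ± 34.6 in cardiomyocytes (SD, n = 5). Dcc, the classical netrin receptor of axons, and Dscam, Ntn3, Ntn5, Unc5a and Unc5d stayed under 10 CPM in all 8 types. Of 8 co-receptors and other ligands, 4 reached 100 CPM, among them Flrt2, a ligand of UNC5 receptors, at 445 CPM ± 107 in endocardium, and Rgma, a ligand of neogenin, at 247 CPM ± 10.2 in fibroblasts (SD, n = 5). Of 14 intracellular genes, 13 did. Srgap3, a GTPase-activating protein that binds Robo, was at 402 CPM ± 114 in lymphatic endothelium and at most 48.0 CPM in the other 7 types, and Srgap2 was highest in macrophages at 1085 CPM ± 123 (SD, n = 5).

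Within fibroblasts the members were uneven. The 5 clusters are named by a leading gene: Fgf10 (2025 nuclei), Cd248 (2127), Kcnip1 (3558), Cilp (4592) and Wif1 (345, with 28 to 114 in a library). Slit3 was highest in the Fgf10 cluster, at 1403, 1704, 1037, 2113 and 1806 CPM, and lowest in the Wif1 cluster, at 91.99, 205, 72.9, 94.0 and 68.5 CPM, a 15.1-fold difference of means. The Fgf10 cluster was also above the next one, that of Cd248, in 5 of 5 libraries and without overlap. Slit2 had the same highest and lowest clusters with a smaller gap, 499.7 against 156 CPM.

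The Wif1 cluster, low in both Slits, had the highest means for Robo1, Robo2, Unc5b and Unc5c. Robo4 was low in every fibroblast cluster, with means from 0.687 to 2.80 CPM, and its highest and lowest clusters overlapped. Unc5c stood there at 374, 354, 214, 357 and 399.6 CPM, against 132 CPM ± 48.2 in the Fgf10 cluster, with no overlap. Unc5b had 117 CPM ± 21.5 there and 63.0 CPM ± 9.15 in the Cilp cluster, again with no overlap, and 20.6 CPM ± 5.92 in the Fgf10 cluster (SD, n = 5). Robo1 and Robo2 also had their highest means there, 499.6 and 155 CPM, in ranges that overlapped with those of the next cluster. This cluster had 4 of 9 fibroblast markers raised, the others had 9 of 9, and its nearest type was fibroblast all the same. Ntn4 was highest in the Cd248 cluster, 287 CPM ± 32.8 against 177 CPM ± 26.6 in the Cilp cluster (SD, n = 5), and Ntn1 ranged from 182 CPM in the Cilp cluster to 61.8 CPM in the Wif1 cluster.

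Ligand and receptor transcripts were found in the same fibroblasts in every library. With nuclei thinned to 1000 UMIs, Slit2 or Slit3 was seen in 43.1%, 50.3%, 31.1%, 55.7% and 56.3% of the nuclei with a Robo1 or Robo2 UMI. In nuclei without one the shares were 49.5%, 51.2%, 32.8%, 56.8% and 57.9%. The share was lower beside a Robo UMI in 5 of 5 libraries, and the difference was not tested.

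Endothelial clusters differed most in Unc5b, Robo2 and the netrins. They are named by Car4, a capillary gene (3820 nuclei), Sema3g, an arterial gene (1857 nuclei), and Lhx6 (1360 nuclei). Unc5b was at 90.6, 167, 91.8, 86.3 and 86.8 CPM in the Sema3g cluster, at 68.1 CPM ± 18.4 in the Car4 cluster and at 3.03, 14.1, 0, 3.97 and 7.50 CPM in the Lhx6 cluster. The Lhx6 cluster lay below both others in every library. Robo2 went the other way, with 130, 166, 74.5, 184 and 131 CPM in the Lhx6 cluster, 52.3 CPM ± 35.3 in the Car4 cluster and 19.5 CPM ± 24.6 in the Sema3g cluster (SD, n = 5).

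Robo4 varied less, from 184 CPM ± 11.3 in the Car4 cluster to 119 CPM ± 24.5 in the Sema3g cluster (SD, n = 5), and these ranges did not overlap. Both netrins were lowest in the Car4 cluster. Ntn1 had 25.9 CPM ± 6.83 there, against 121 CPM ± 36.5 in the Lhx6 cluster and 160 CPM ± 21.4 in the Sema3g cluster, and Ntn4 had 4.64, 19.9 and 53.8 CPM in the same order.

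**Figure D2:**
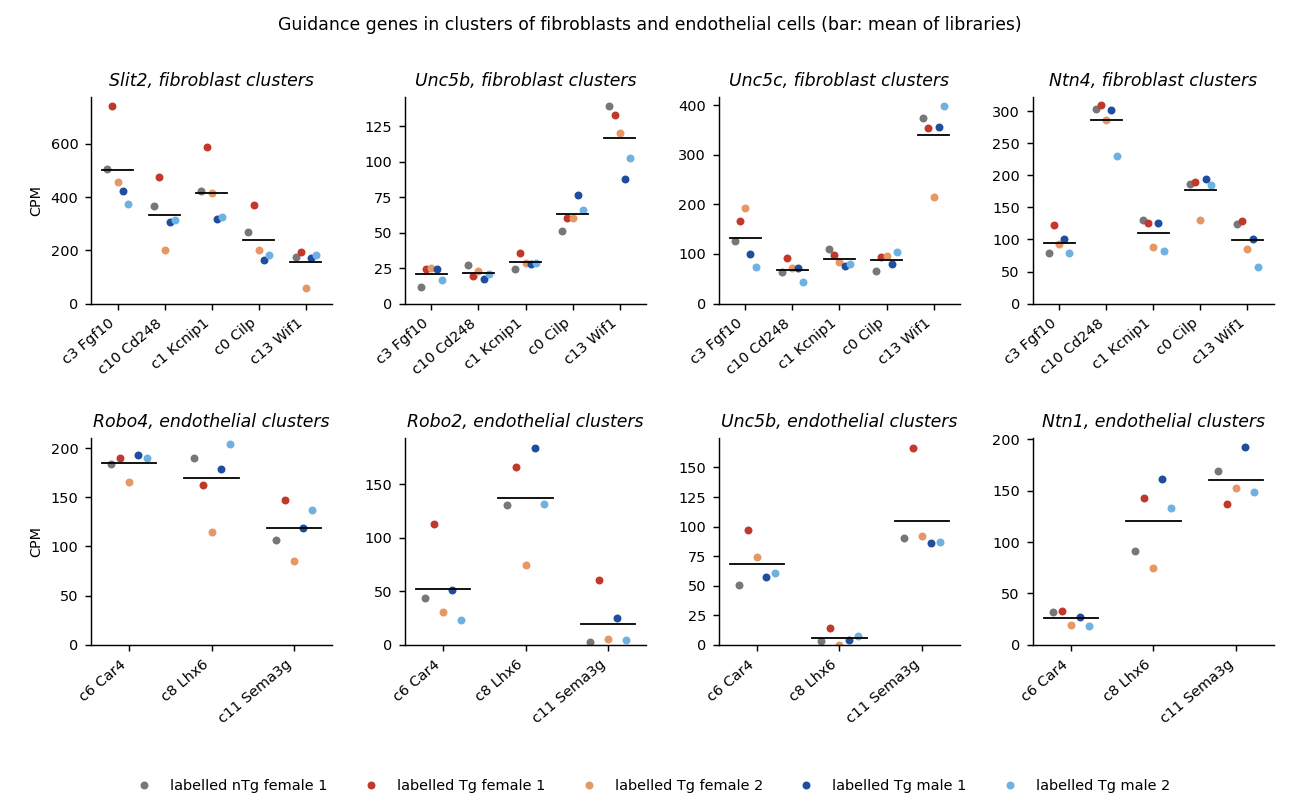
Levels (CPM) of 4 members in 5 fibroblast clusters (upper row) and of 4 members in 3 endothelial clusters (lower row); points are libraries, bars their means. Unc5b and Unc5c are highest in the Wif1 fibroblast cluster, and Unc5b is near 0 in the Lhx6 endothelial cluster, where Robo2 is highest.

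Cardiomyocytes as a whole had little Slit2 (23.7 CPM ± 9.98), Slit3 (84.7 CPM ± 18.9) and Robo1 (10.4 CPM ± 8.16; SD, n = 5), and most of their Robo1 came from 1 small state. Cardiomyocyte nuclei fell into 8 states. That led by Fgf12, with Cntn2, Cpne5 and Etv1 among its leading genes, held 127 nuclei: 11, 43, 32, 31 and 10 in the 5 libraries, or 1.93% of cardiomyocytes. It gave 455 of 520 Robo1 UMIs, or 87.5%, 31.4% of Slit2 UMIs and 27.0% of Slit3 UMIs, while it gave 1.49% of the UMIs of all genes. The Slit2 share rested in part on the libraries whose labels Ccna2 contradicted: it was 38.0% and 41.5% in these, and 124 of 597 UMIs, or 20.8%, in the other 3 libraries together. The Robo1 and Slit3 shares were 87.5% and 26.6% in those 3, a comparison added after the data had been seen. Cntn2 and Etv1 are known from the conduction system of the heart, and Hcn4, the pacemaker channel, was at 105 CPM in the pooled state. Genes known from atrial muscle were counted there too: Myl4 was at 313, Myl7 at 74.7, Sln at 48.5 and Nppa at 588 CPM, against 4.78, 0.651, 0.488 and 13.1 CPM in the largest state, led by Ptgds (2504 nuclei). The state is named here by its leading gene only. Robo1 was the second of its leading genes, although neither it nor the other members had been used to cluster the nuclei. The other receptors were raised less: the state gave 34 of 109 Robo2 UMIs, 31 of 184 Unc5b UMIs and 16 of 65 Unc5c UMIs of cardiomyocytes. Pooled over libraries, Robo2 was at 44.5 CPM in the state and 1.49 CPM outside it, while Ntn4 was at 3.93 CPM in the state and 16.7 CPM outside it.

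In the Fgf12 state Slit3 stood at 1234, 1910, 1269, 1566 and 1237 CPM, a mean of 1443 CPM ± 295 (SD, n = 5). Its range overlapped that of smooth muscle. Slit2 had 955, 876, 143, 346 and 312 CPM, with the 2 libraries whose labels Ccna2 contradicted above the others. Robo1 had 69.9, 920, 789, 485 and 258 CPM. The first of these rests on 6 UMIs in 11 nuclei of the library labelled nTg female 1, and without that library the mean rose from 504.3 to 613 CPM. Outside the state, Robo1 was at 0.734 to 1.96 CPM in every library.

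Markers of other cell types were also counted in the Fgf12 state. Summed fibroblast markers were at 64.5 to 380.0 CPM there and at 64.0 to 267 CPM in the Ptgds state. Endocardial markers, of which 3 of 8 were raised in the Fgf12 state, were at 817.5 to 1534 CPM against 453 to 790 CPM. Smooth muscle markers were at 26.3 to 122 against 5.82 to 30.6 CPM, and macrophage markers at 23.3 to 122 against 9.48 to 22.8 CPM. Their part in the Slit and Robo1 levels of the state was not tested. At a coarser resolution of the clustering, the state led by Fgf12 held 405 nuclei, with Nppa also among its leading genes, and its mean Slit2, Slit3 and Robo1 were 112, 352 and 125 CPM.

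A second state, led by Rp1 and Epha6 (1597 nuclei, 193 to 480 in a library), also stood out for the Slits. Slit2 was there at 36.2, 58.8, 38.2, 86.0 and 32.7 CPM and in the Ptgds state at 2.10, 4.09, 3.02, 1.75 and 2.18 CPM. Slit3 had 121 CPM ± 35.2 against 39.4 CPM ± 12.6 (SD, n = 5), the latter near the macrophage level of 35.4 CPM. A state of 232 nuclei, of which 1 was in Tg female 1, had Ccna2 among its leading genes. Pooled over libraries it had only 5 Slit2 and 3 Robo1 UMIs, or 2.66 and 1.59 CPM. Ntn1 was at 53.0 CPM ± 21.4 in the Fgf12 state and at 105 CPM ± 20 in the Ptgds state (SD, n = 5), and these did not overlap. States of 510 and 43 nuclei had raised 9 of 9 endothelial or fibroblast markers and are not described.

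**Figure D3:**
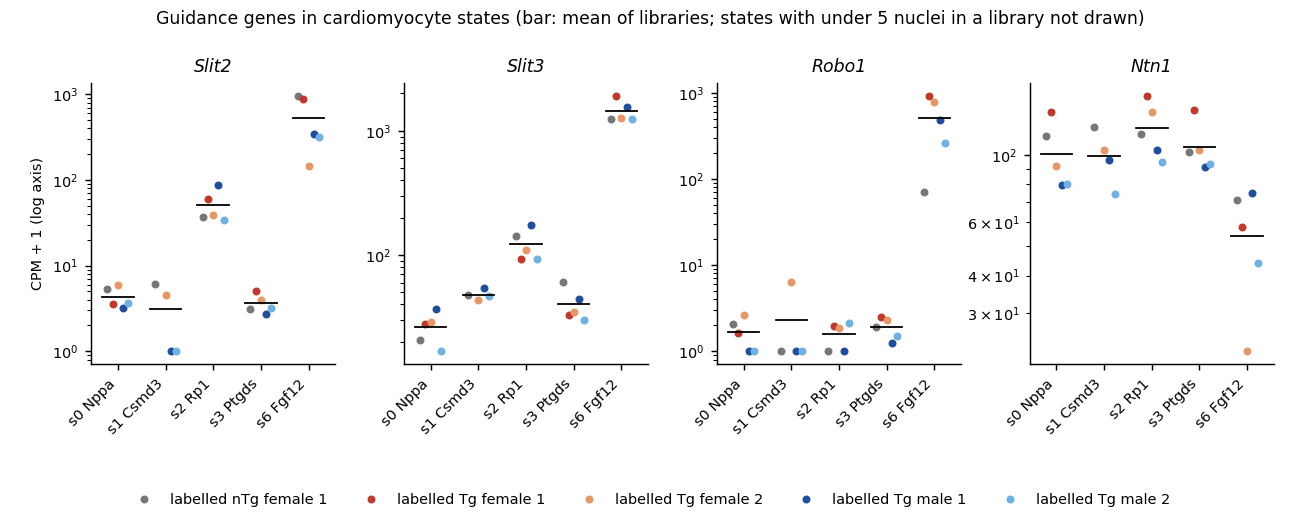
Levels (CPM + 1, log axis) of Slit2, Slit3, Robo1 and Ntn1 in 5 of the cardiomyocyte states, 1 point per library and bars for means. In the state with Ccna2 among its leading genes, Tg female 1 had 1 nucleus and is left out of the points and the mean. The Fgf12 state is the highest of these 5 for both Slits and Robo1 and the lowest for Ntn1; Slit2 and Slit3 are next highest in the Rp1 state.

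The sex contrast set the 2 libraries labelled Tg female against the 2 labelled Tg male within each of the 8 types. Ccna2 contradicted the label of a library on the female side, at 0.522 CPM in its cardiomyocytes, and of neither male library. Sex and transgene therefore cannot be separated in this contrast, and the part of the transgene in the differences was not tested. No member passed an adjusted p of 0.05 in any type in edgeR's quasi-likelihood test, nor did any of the 31 other pathway genes. The test called 0.205% of all genes over the 8 types together. Of 49 pairs of member and type that passed the filter on low counts (of 72 possible), 11 had an unadjusted p under 0.05, against 7.93% of all genes, and 10 of these 11 were higher in female libraries, as were 51.1% of all genes with such a p. The ranges of the sexes did not overlap in 22 of the 49 pairs, against 38.1% of all genes, 19 times with the female libraries above, as were 58.9% of all genes whose ranges did not overlap. Members and types share the same 4 libraries, so these pairs are not independent. Nothing in the labels says that the libraries come from separate animals, and the p-values measure the spread between these libraries.

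Of these 11 pairs, Slit3 in fibroblasts was the one with higher values in male libraries. Both libraries labelled male, at 1066 and 1041 CPM, lay above both labelled Tg female, at 685 and 314 CPM, and above the library labelled nTg female 1, at 657.5 CPM. The log2 difference, female minus male, was -1.16 ± 0.35 (SE; edgeR adjusted p = 0.263). Tg female 2 decided its size: it was -0.69 (adjusted p = 0.060) without Tg female 2 and -1.88 (adjusted p = 0.0003) without Tg female 1, both from edgeR. Each such fit leaves 1 female library, which is assumed to vary like the 2 male ones.

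Fibroblast clusters had different shares in these libraries. The Fgf10 cluster, where Slit3 was highest, made up 13.9% and 6.04% of the fibroblasts in the Tg female libraries and 22.7% and 24.4% in the male ones, and the Cilp cluster 38.6% and 60.9% against 24.3% and 20.5%. In each of the 4 clusters with at least 50 nuclei in every library both Tg female libraries were below both male ones. In the Wif1 cluster, which had fewer nuclei, the sexes overlapped. The clusters share the same libraries and are not independent. With equal weight for those 4 clusters, Slit3 was at 841 and 509 CPM in the Tg female libraries and at 1106 and 1037 CPM in the male ones. The difference was -0.71 in log2(CPM + 1), which is not edgeR's measure. The part of the cluster shares in the Slit3 difference was not tested. This weighting was chosen after the data had been seen. The summed fibroblast markers were 9328 CPM in Tg female 2 and 13250 to 14200 CPM in the other libraries.

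**Figure D4:**
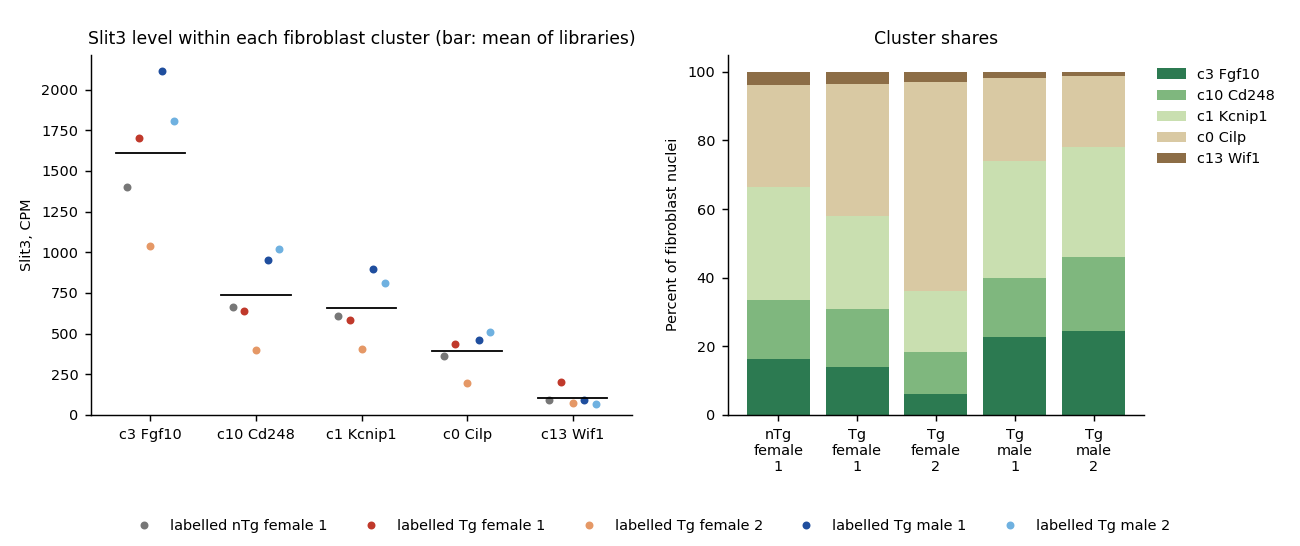
Slit3 (CPM) in each fibroblast cluster by library (left; bars are means of 5 libraries) and the percent of fibroblast nuclei in each cluster (right). Male libraries lie above Tg female libraries in the Fgf10, Cd248, Kcnip1 and Cilp clusters, and the Cilp cluster takes 60.9% of fibroblasts in Tg female 2.

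In pericytes Slit3 was in the opposite order, 113 and 109.6 CPM in the female libraries and 73.7 and 58.0 CPM in the male ones (log2 difference 0.75 ± 0.22, SE; edgeR adjusted p = 0.381), and edgeR called it without Tg female 2 (0.77, adjusted p = 0.042). All 9 fibroblast markers were counted in pericytes, and their sum was 1963 to 2196 CPM in the female and 1616 to 1627 CPM in the male libraries. Their part in the Slit3 difference was not tested.

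Endocardium, the inner lining of the heart chambers, held 3 of the 11 pairs with an unadjusted p under 0.05, all receptors and all higher in female libraries, against 7.91% of all genes there. The median log2 difference of the 9 members was 0.675 there, and 0.00171 over all genes tested. Robo2 had 34.6 and 44.5 CPM in the female and 9.58 and 2.90 CPM in the male libraries, from 38, 19, 9 and 2 UMIs (log2 difference 2.44 ± 0.50, SE; edgeR adjusted p = 0.106). Unc5b had 31.9 and 42.1 against 14.9 and 11.6 CPM, and Robo1 15.5 and 25.7 against 5.32 and 4.35 CPM. The library labelled nTg female 1 had 16.5 CPM of Robo2 and 19.2 CPM each of Unc5b and Robo1, above both male libraries for all 3. Fibroblast markers in endocardial nuclei summed to 1573 to 1809 CPM in the Tg female and 1136 to 1390 CPM in the male libraries, with at most 1 of 9 at 0, and endothelial markers to 6579 to 7575 and 8290 to 8380 CPM. Pericyte markers summed to 108 to 149 CPM in the Tg female and 46.4 to 63.8 CPM in the male libraries, and smooth muscle markers to 63.2 to 101 and 47.9 to 59.6 CPM. Their part in these differences was not tested.

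Robo2 in endocardium was called by edgeR without Tg female 2 (log2 difference 2.30, adjusted p = 0.0275) and without Tg male 1 (3.59, adjusted p = 0.0041), and not without Tg female 1 (2.62, adjusted p = 0.133) or Tg male 2 (1.92, adjusted p = 0.151). In these fits too the lone library of a sex is assumed to vary like the other sex.

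Robo1 in cardiomyocytes is given with the share of the Fgf12 state. The cardiomyocyte levels were 17.5 and 19.5 CPM in the female and 10.5 and 3.16 CPM in the male libraries (log2 difference 1.39 ± 0.46, SE; edgeR adjusted p = 0.573), and edgeR called it without Tg male 1 (2.46, adjusted p = 6.7e-06). The Fgf12 state made up 2.17% and 3.30% of their cardiomyocytes against 2.37% and 0.850%. Without its nuclei the levels were 1.82 and 1.96 against 1.09 and 0.938 CPM. These rest on only 24, 12, 12 and 10 UMIs, and the difference between them was not tested. Ntn4 in cardiomyocytes had 24.6 and 20.9 against 10.4 and 11.2 CPM, 2 separate pairs (log2 difference 1.04 ± 0.21, SE; edgeR adjusted p = 0.354). In the same nuclei, summed fibroblast markers were at 106 to 284 CPM in the female and 71.7 to 81.7 CPM in the male libraries. Pericyte markers were at 340.5 to 371 against 257 to 262 CPM, and endocardial markers at 712 to 797 against 456.5 to 569 CPM. Their part in the Ntn4 and Robo1 differences was not tested. Unc5c in smooth muscle had a log2 difference of 1.62 ± 0.56 (SE; edgeR adjusted p = 0.653), which was -0.43 without Tg female 1 and was called at 2.29 without Tg female 2 (edgeR adjusted p = 4.61e-10). Without Tg female 1, whose label Ccna2 contradicted, the log2 differences were 1.55 for Unc5b and 2.27 for Robo1 in endocardium, 1.43 for Robo1 and 0.88 for Ntn4 in cardiomyocytes, and 0.70 for Slit3 in pericytes, none called by edgeR.

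**Figure D5:**
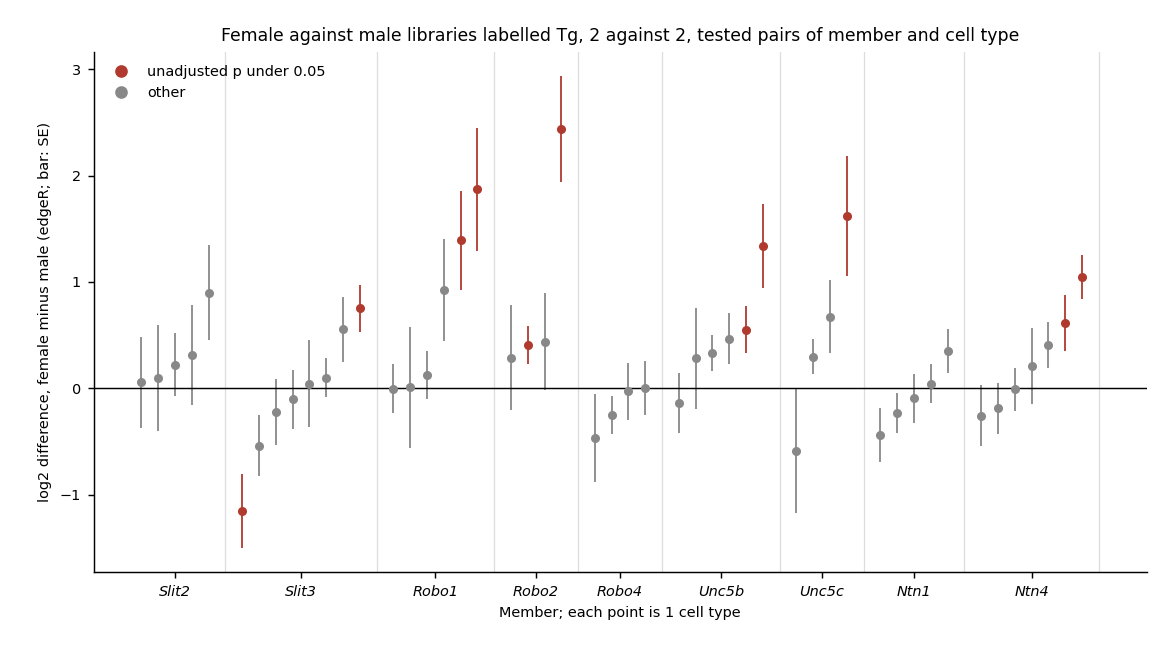
Log2 differences, female minus male, from edgeR for the 49 tested pairs of member and cell type, grouped by member, with SE bars; red points have an unadjusted p under 0.05. Slit3 in fibroblasts is the red point below 0, and 10 red points lie above 0.

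The library labelled nTg stood alone in its group, so it was set beside the 4 libraries labelled Tg without a test. Ccna2 contradicted its label, and its values cannot be read as those of the non-transgenic genotype. Of 47 pairs of member and type with a mean of at least 10 CPM over the 5 libraries, 2 were at least 2-fold from the Tg mean and outside the Tg range, against 3.46% of all genes. Robo1 in cardiomyocytes had 1.35 CPM (95% exact Poisson interval 0.720 to 2.31, counting error only) against 3.16 to 19.5 CPM, and Slit2 in smooth muscle 58.4 CPM (35.2 to 91.2) against 15.8 to 36.7 CPM. In cardiomyocytes 0.761% of genes passed this limit and in smooth muscle 10.8%. The Fgf12 state made up 0.972% of cardiomyocytes in this library and 0.850% in Tg male 2, where cardiomyocyte Robo1 was at 3.16 CPM. The part of this share in the Robo1 level was not tested.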

How the data were processed

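Single-nucleus RNA of adult mouse heart was measured in 8 labelled libraries. The deposited files hold raw UMI counts per gene and barcode, made by the authors with Cell Ranger 7.0.0 per the file headers and build mm10 per the submitters' processing notes. The annotation, intron counting and cell calling are not given in the sources used here. The other 3 matrices labelled nTg held the same values as the Tg matrices of the same sex and number, and their column counts differed from their own barcode lists, so they were left out.

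Nuclei with at least 200 genes and under 5% mitochondrial UMIs were kept, and scrublet doublets, 5.22% to 9.86% per library, were removed. Clustering used scanpy 1.11.5 with 2000 variable genes, 30 principal components and Leiden resolution 1 (0.5 for cardiomyocytes), without 47 genes (members, other pathway genes, Ccna2 and sex-linked genes). Clusters were named where at least 3 markers of a type were raised. Rules for leaving a cluster unnamed were chosen with the clusters in view. CPM is the sum of a gene's counts per 1000000 UMIs of a library and cell type.

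The sex contrast used edgeR 4.0.16 (quasi-likelihood test, TMM, filterByExpr, Benjamini-Hochberg over all genes of a cell type, threshold 0.05) in R 4.3.3 and was tested on simulated data. Alternatives included DESeq2 1.42.0, and those marked in the text as chosen after seeing the data. Members are described in full, and other pathway genes are named at 100 CPM or more in a cell type or for being low. The SE of a log2 difference is its absolute value divided by the square root of edgeR's F statistic. Intervals cover counting error only. Members and gene lists were chosen with earlier results of these data known. Of the cardiomyocyte states, 1 is not reported here.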

Additional observations from a re-analysis of the deposited data

Results flagged for a closer look

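For 2 genes the sex difference within the libraries labelled Tg ran in opposite directions in different cell types, with both female libraries on one side of both male libraries in one type and on the other side in the other. Each difference between types was tested by an exact permutation test of the sex labels, two-sided, which gave p = 0.333 in all 6 cases, the smallest that 2 against 2 libraries allow. The cases were picked because the sexes did not overlap and went opposite ways, which fixes this p, so it gives no support to a difference between types.

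Slit3 was lower in female fibroblasts (edgeR log2 difference -1.16). The values between types were taken from log2(CPM + 1) and not from edgeR. Relative to fibroblasts, the difference, female minus male, was 1.94 higher in pericytes, 1.72 higher in macrophages and 1.35 higher in endothelial nuclei. Macrophage and endothelial Slit3 was low, and whether it came from expression or from RNA of other cells was not tested. Ntn4 was lower in female smooth muscle (edgeR log2 difference -0.26). Relative to smooth muscle, its difference in log2(CPM + 1) was 1.3 higher in cardiomyocytes, 0.917 higher in endothelial nuclei and 0.744 higher in endocardium.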

How the results depend on the processing

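Leading-type levels moved by less than the spread between libraries under a filter of 500 genes, clustering at resolution 0.5 and leaving out each library, and with doublets kept except for Robo4 in endothelium, which was 144.7 CPM in place of 164.4. At the coarser cardiomyocyte resolution of 0.3 the Fgf12 state had 111.9 CPM of Slit2, 351.9 of Slit3 and 124.6 of Robo1. In the sex contrast, 0 members were called by edgeR, by edgeR with RLE scaling, by DESeq2 and with 5 libraries, 4 without the filter on low counts, and 0 to 3 when 1 library was left out. Other pathway genes called were 0, then 4 without the filter and 1 to 2 with 1 library left out. Genes called in all went from 176 to 2090 without the filter, 571 with DESeq2, 63 with 5 libraries and no genotype term (chosen after seeing the data) and 617 to 2665 with 1 library left out. A fit with 1 library left out has 1 library in an arm, which is assumed to vary like the other arm. The calls of members in such fits were Robo1 in cardiomyocytes, Robo1 in macrophages, Robo2 in endocardium, Slit3 in fibroblasts, Slit3 in pericytes and Unc5c in smooth muscle. Unc5c in smooth muscle turned to a log2 difference of -0.433 without Tg female 1 (edgeR adjusted p = 0.874) and was 2.29 without Tg female 2 (edgeR adjusted p = 4.61e-10), and the cause was not tested. With the replicate number as a block, 1 member (Robo2 in endocardium, log2 difference 2.44, edgeR adjusted p = 0.0177) and 1003 genes were called. The labels give same-numbered libraries only a number in common. Deviations of Tg female 1 and Tg male 1 from the mean of their sex correlated at -0.0304 to 0.139 over genes in the 8 types. With 2 libraries per sex, the correlation with Tg male 2 is the same value with the opposite sign. These correlations therefore cannot decide whether same-numbered libraries share a batch, which was not tested. Member and type pairs past the fold for the library labelled nTg were 2 to 4 with 1 Tg library left out. With 2 libraries per sex and shallow types such as smooth muscle (517 nuclei), small differences were not detectable at this depth.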
